A study of Saccharomyces cerevisiae with 8 samples.

Results

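Ribosome-protected fragments (RPFs) of 10 amino acid permease genes, AGP1, GNP1, BAP2, BAP3, TAT1, TAT2, CAN1, MUP1, DIP5 and HIP1, were described across 4 evolved strains of budding yeast that all carry extra copies of GAP1, the gene of the general amino acid permease. The genes were chosen by name and make up 10 of the 6600 protein-coding genes in the count tables. GAP1 itself is not among them and serves here as a point of reference.

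Amino acid permeases are membrane proteins of the plasma membrane that carry amino acids into the cell together with protons, and most of them belong to 1 family with a shared fold. In budding yeast they differ in what they carry and in how their genes are switched on. GAP1 and a few others are held down by rich nitrogen sources and switched on by GATA factors when nitrogen is poor, whereas a second set, which includes AGP1, GNP1, BAP2, BAP3, TAT1 and TAT2, answers to amino acids outside the cell through the SPS sensor (Ssy1, Ptr3 and Ssy5), which releases the transcription factors Stp1 and Stp2 from their membrane-bound state. Newly made permeases need the chaperone Shr3 to leave the endoplasmic reticulum, and they are removed from the surface by the ubiquitin ligase Rsp5 with its arrestin-like adaptors.

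A set of 4 strains of the FY4/S288C background were compared, each of them 1 clone that had evolved under glutamine limitation and each with 2 replicate chemostat cultures, which gives 8 libraries. All 4 strains descend from an ancestor with a GFP and KanMX reporter beside GAP1 and hold a copy number variant (CNV) of GAP1. In Trans, isolated at about generation 150, GAP1 lies in a tandem duplication within a translocation, and a stretch of chromosome V that starts at SAK1 is also amplified. ODIRA_A, isolated at the same time, and ODIRA_B, isolated at about generation 250, each carry an amplification with an inverted middle copy of the kind formed by origin-dependent inverted-repeat amplification (ODIRA). ComQuad, also isolated at about generation 250, carries a complex CNV with the most GAP1 copies. All cultures were grown in minimal medium with 800 uM glutamine at 30 C with a doubling time of 5.8 h. The ancestor was not analysed here, so every value below compares evolved strains with each other. None of the 10 genes lies on chromosome XI, which holds GAP1, and CAN1, the only member on chromosome V, lies outside the stretch amplified in Trans.

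All 10 genes are encoded by a single uninterrupted coding sequence (CDS) in the R64 genome. The SPS-regulated promoters are known for short elements built on the bases CGGC, the core bound by Stp1 and Stp2, and GATA factors bind GATAAG. Stretches of upstream DNA rich in these letters are shown for 6 of the 10 members. BAP3, TAT2, HIP1 and DIP5 are not shown, and DIP5 has no match of either motif. Capitals mark each CGGC or its reverse complement GCCG, and in AGP1 and CAN1 each GATAAG, and all 6 stretches are written 5′ to 3′ on the strand of the gene. They were read from the R64 reference at chrIII:78134-78179 for AGP1 (minus strand), chrIV:1468789-1468910 for GNP1 (minus), chrII:376064-376130 for BAP2 (minus), chrVII:598922-599107 for MUP1 (plus), chrII:378819-378903 for TAT1 (minus) and chrV:33724-33758 for CAN1 (minus).
AGP1: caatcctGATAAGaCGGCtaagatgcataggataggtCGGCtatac
GNP1: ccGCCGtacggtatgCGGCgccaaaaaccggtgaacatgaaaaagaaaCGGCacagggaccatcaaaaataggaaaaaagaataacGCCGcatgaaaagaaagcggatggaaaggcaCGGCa
BAP2: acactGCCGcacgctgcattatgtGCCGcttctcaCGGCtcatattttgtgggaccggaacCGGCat
MUP1: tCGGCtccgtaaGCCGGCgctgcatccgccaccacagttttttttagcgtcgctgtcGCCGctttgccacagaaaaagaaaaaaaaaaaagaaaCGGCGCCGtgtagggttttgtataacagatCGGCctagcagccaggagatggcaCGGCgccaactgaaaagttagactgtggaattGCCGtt
TAT1: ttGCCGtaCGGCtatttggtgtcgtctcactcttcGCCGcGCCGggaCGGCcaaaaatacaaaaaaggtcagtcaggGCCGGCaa
CAN1: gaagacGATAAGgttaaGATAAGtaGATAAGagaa
Where the palindrome GCCGGC or the run CGGCGCCG stands, as before MUP1 and TAT1, neighbouring matches lie on opposite strands, and in GCCGGC they overlap and were counted separately.

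Over the 500 bases before the start codon, on both strands, CGGC was found at least once before 9 of the 10 genes, and 69.6% of 6567 promoters of the same length hold it. At least 3 matches stood before 7 members (AGP1 4, GNP1 5, BAP2 6, BAP3 6, TAT1 7, TAT2 3 and MUP1 9), against 18.9% of all promoters. CAN1 and HIP1 have 1 match each and DIP5 has 0. An inverted pair of the core, CGGC and GCCG with 6 bases between them, was found before 0 members and in 0.2% of promoters. GATAAG stood before AGP1, with 2 matches, and before CAN1, with 3 matches between 286 and 267 bases before the start codon, and 22.6% of promoters hold at least 1. TGACTC, the motif of the general amino acid control factor Gcn4, was found before AGP1, BAP2, CAN1, MUP1 and HIP1 and in 13.2% of promoters. CACGTG, bound by the methionine pathway factor Cbf1, stood before no member and in 6.0% of promoters. These matches describe the letters in the window and are not mapped binding sites.

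**Figure D1:**
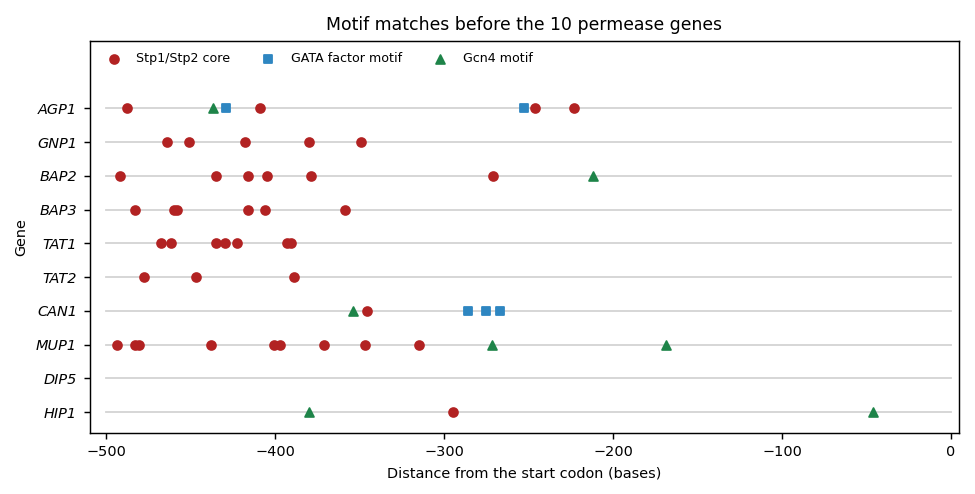
Positions of motif matches before the 10 genes, with distance from the start codon in bases on the horizontal axis and 1 gene per line. Circles are the Stp1/Stp2 core, squares the GATA factor motif and triangles the Gcn4 motif, all on either strand. The most matches of the core stand before MUP1 (9) and TAT1 (7), and DIP5 has no match of the 3 kinds.

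RPF counts on CDS came to between 3723082 and 11459498 per library, with a median of 7805467, and the smallest totals were those of ODIRA_B (3923583 and 3723082). Levels are given as CPM, CDS counts scaled to a common library size after normalization by the trimmed mean of M-values (TMM). The strain labels could be checked on VPS1, at the edge of the ODIRA_B CNV, and on SAK1, where the second CNV of Trans begins. The breakpoint likely lies inside SAK1, so this CNV holds only a part of the gene, and the study's methods leave SAK1 out for Trans. VPS1 averaged 1132 CPM in ODIRA_B against 290.3 to 360 in the other strains, and SAK1 averaged 81.6 CPM in Trans against 32.6 to 38.9. Adjusted P values are from 1 edgeR quasi-likelihood fit over all 8 libraries with Benjamini-Hochberg (BH) adjustment over 5725 genes. The fit estimates 1 variance per gene from the spread between replicate chemostat cultures, pooled over all strains. Since each strain is 1 clone, the P values hold no measure of the spread between clones. RPF abundance combines the amount of an mRNA and its load of ribosomes, which cannot be told apart here. A gene was called where the BH adjusted P was under 0.05.

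The 10 permeases were read by ribosomes at widely different levels. Per kilobase of CDS, averaged over the 8 libraries, DIP5 stood at 418 CPM per kb, CAN1 at 245 and MUP1 at 104. HIP1 followed at 20.3 CPM per kb, AGP1 at 12.5, GNP1 at 9.04, BAP2 at 7.30, TAT1 at 3.92 and TAT2 at 1.96. BAP3 was lowest at 0.319 CPM per kb, and GAP1 stood far above all of them at 6430 CPM per kb. Hence, within the 10 members and leaving GAP1 aside, the carriers of acidic amino acids, arginine and methionine made up most of the signal. The members with a wider or aromatic and branched-chain range were thinly read. DIP5 and CAN1 together held between 74.8% and 91.8% of the members' summed CPM in each library. The summed level of the 10 genes was 987 and 1266 CPM in Trans, 831 and 826 in ODIRA_A, 1452 and 1347 in ComQuad and 2526 and 2609 in ODIRA_B. Against the CPM of GAP1 in the same library, this sum ranged from 8.14% in a ComQuad library to 19.3% in an ODIRA_B library.

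Of the 10 genes, 9 were counted often enough to be tested, with 10 or more RPFs in 2 or more libraries. Across the 4 strains, RPF abundance changed for 8 of these 9, all but TAT1, and the background share of all tested genes called in this comparison was 43.5%. The median ratio of the highest to the lowest strain mean was 4.65 over the 9 genes and 1.48 over all 5725 tested genes. ODIRA_B was the highest strain for 6 of the 8 called members, AGP1, GNP1, BAP2, CAN1, MUP1 and DIP5. Over all tested genes, 2491 were called and 623 of these were highest there (10.9% of tested genes). TAT2 and HIP1 were highest in Trans, as were 480 of the 2491 called genes (8.38% of tested genes). For all 6 of the genes highest in ODIRA_B, both ODIRA_B libraries lay above the other 6 libraries, a pattern found for 12.6% of tested genes. Both ComQuad libraries lay below the other 6 for 5 members, BAP2, TAT1, CAN1, MUP1 and HIP1, against 17.9% of tested genes. The ODIRA_B libraries are also the shallowest, and the part of depth in these counts was not tested. Without both of them, in a comparison of the other 3 strains added after the data were seen, 5 members were called (AGP1, BAP2, MUP1, DIP5 and HIP1), with 29.3% of tested genes called, and GNP1 (BH adjusted P = 0.124), CAN1 (0.0973) and TAT2 (0.059) were no longer called by edgeR.

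**Figure D2:**
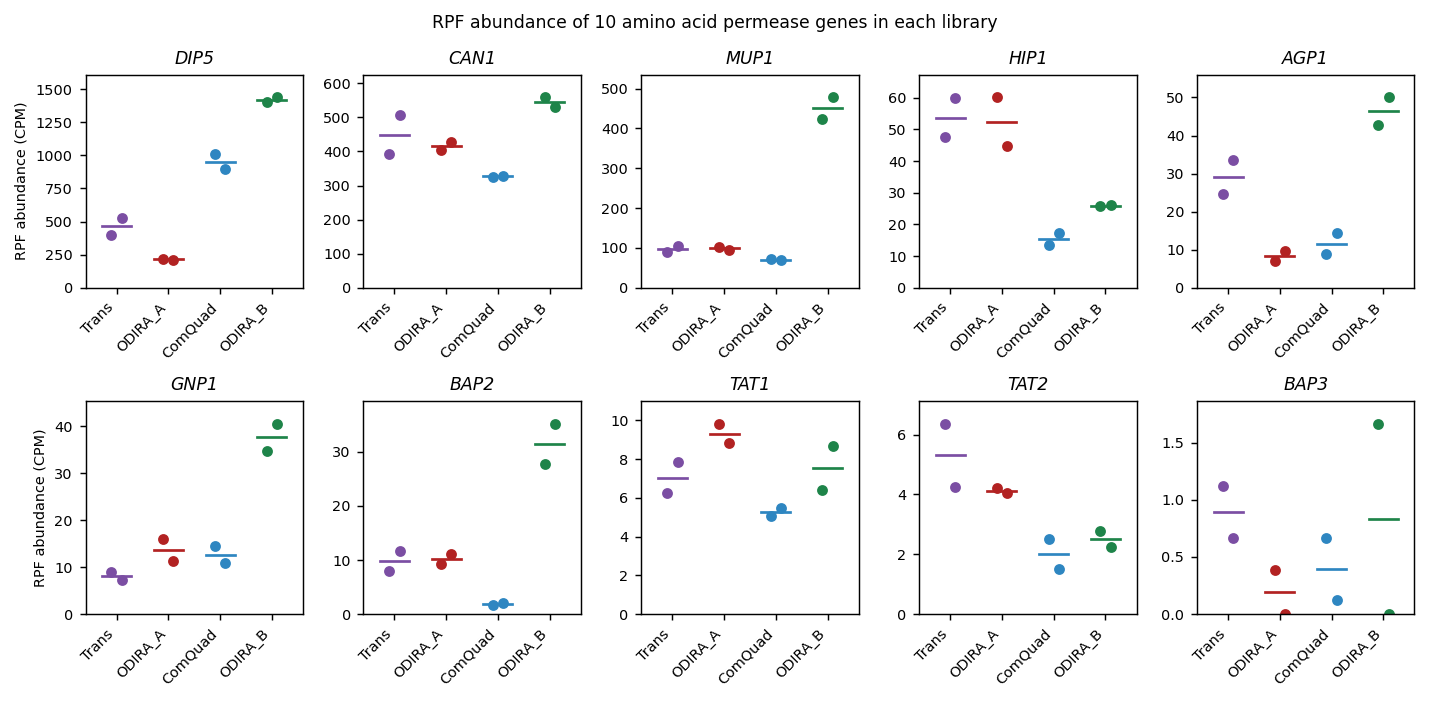
RPF abundance in CPM of the 10 permease genes, 1 panel per gene in order of mean CPM, with each vertical axis starting at 0 and scaled to its gene. Points are single libraries, bars the mean of the 2 replicates of each strain. For AGP1, GNP1, BAP2, CAN1, MUP1 and DIP5 both ODIRA_B points lie above all others, and BAP3 stays at or under 1.67 CPM in every library.

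In pairs of strains, 32 of the 54 member tests were called. Trans and ODIRA_A were the closest pair, with 2 of 9 members called, AGP1 and DIP5, both higher in Trans, and a background of 3.65% (2.64% higher in Trans). Trans exceeded ComQuad for 6 members and fell below it for 1, DIP5, with 30.7% of tested genes called in either direction (16.3% higher in Trans and 14.5% higher in ComQuad). ODIRA_A exceeded ComQuad for 4 and fell below it for 1, again DIP5, against a background of 33.6% (17.2% higher in ODIRA_A and 16.4% higher in ComQuad). All 7 members called between ComQuad and ODIRA_B were higher in ODIRA_B, where 14.7% of tested genes were called in that direction and 24.6% in both. ODIRA_B also exceeded ODIRA_A for 5 members and fell below it for 1, HIP1, where the background was 22.4% (12.4% higher in ODIRA_B and 9.99% higher in ODIRA_A). It exceeded Trans for 4 members and fell below it for HIP1, with a background of 18.7% (10.1% higher in ODIRA_B and 8.63% higher in Trans). The pairs share libraries, so their counts are not independent of one another. Set against ODIRA_B, the median log2 difference over the 9 members was -0.77 for ComQuad, -1.46 for ODIRA_A and -0.68 for Trans, while the median of all tested genes was 0.01 in each of these pairs. With only the 4 libraries of the pair in the fit, 4 instead of 7 members were called between Trans and ComQuad. Leaving out 1 library also moved the counts between Trans and ComQuad, Trans and ODIRA_A, and ODIRA_A and ComQuad. The share of all tested genes called in these smaller fits is not given here. A lower count therefore cannot be read as a result about the members alone.

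AGP1 and GNP1 encode the permeases with the clearest tie to the limiting nutrient, since Gnp1 is a high-affinity glutamine permease and Agp1 a low-affinity permease of broad range that also takes glutamine and asparagine. AGP1 (chrIII:76018-77919, minus strand) stood at 24.6 and 33.5 CPM in Trans, 7.14 and 9.65 in ODIRA_A, 8.81 and 14.4 in ComQuad and 42.7 and 50.03 in ODIRA_B. Both Trans and both ODIRA_B libraries were above all those of ODIRA_A and ComQuad, which overlapped. The strain means were 46.4 ± 5.15 CPM (SD, n = 2) in ODIRA_B and 8.40 ± 1.78 in ODIRA_A, a log2 difference of -2.45 (SE 0.28) for ODIRA_A against ODIRA_B (edgeR BH adjusted P = 0.000176). AGP1 was higher in Trans than in ComQuad by 1.34 on the log2 scale (SE 0.26, edgeR BH adjusted P = 0.00299). It was higher in Trans than in ODIRA_A by 1.78 (SE 0.27, edgeR BH adjusted P = 0.00651), and this call was lost without ODIRA_A replicate 1 (0.0646) or replicate 2 (0.0719). Trans and ODIRA_B differed by -0.68 (SE 0.25) and were not called apart (0.086), but they were when Trans replicate 2 was left out (log2 difference -0.92, 0.0288) and in the fit blocked on replicate number (-0.69, 0.0228). The order of the strains was thus ODIRA_B, Trans, ComQuad, ODIRA_A, and the only called step between neighbours was that from Trans to ComQuad.

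GNP1 (chrIV:1466453-1468444, minus strand) stood at 8.98 and 7.18 CPM in Trans, 16.1 and 11.4 in ODIRA_A, 14.5 and 10.8 in ComQuad and 34.7 and 40.5 in ODIRA_B. The ODIRA_B libraries were the highest and the Trans libraries the lowest, with ODIRA_A and ComQuad overlapping between them. ODIRA_B exceeded all 3 other strains, by log2 differences of -2.21 for Trans against ODIRA_B (SE 0.25, edgeR BH adjusted P = 0.000262), -1.46 for ODIRA_A (SE 0.24, 0.00175) and -1.56 for ComQuad (SE 0.24, 0.000865). The other 3 strains were not called apart, although without Trans replicate 1 GNP1 was lower in Trans than in ODIRA_A (-0.92, edgeR BH adjusted P = 0.0332) and ComQuad (-0.83, 0.0375). AGP1 and GNP1 are near relatives, with 68.2% identical bases in their aligned CDS. Even so, only 1.07% of the 28-base windows of AGP1 and 1.02% of those of GNP1 recur elsewhere in the genome, 20 windows each, and 0 windows of the other 8 members do. The largest difference between the profiles of the pair was in Trans, where AGP1 was above and GNP1 below the mean of the strains, by 0.61 and -0.91 on the log2 scale.

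DIP5 (chrXVI:41043-42869, plus strand), the permease of glutamate and aspartate, was the member with the highest mean CPM over the 8 libraries. It had between 1711 and 12115 RPFs per library. In the ODIRA_A libraries CAN1 had more, with 3160 and 4039 RPFs against 1711 and 2003 for DIP5. The level of DIP5 was 401 and 530.4 CPM in Trans, 218 and 212 in ODIRA_A, 1007 and 899 in ComQuad and 1402 and 1438 in ODIRA_B. No 2 strains overlapped. All 6 pairs were called, from a log2 difference of -0.58 for ComQuad against ODIRA_B (SE 0.15, edgeR BH adjusted P = 0.0175) to -2.72 for ODIRA_A against ODIRA_B (SE 0.16, 2.20e-06). DIP5 was the only member called higher in ComQuad than in Trans (-1.03 for Trans against ComQuad, SE 0.15, edgeR BH adjusted P = 0.00052) or ODIRA_A (-2.15, SE 0.16, 3.11e-06). The call between ComQuad and ODIRA_B was lost without any 1 of their 4 libraries (0.0716 without ComQuad replicate 1, 0.151 without ComQuad replicate 2, 0.0936 and 0.109 without ODIRA_B replicates 1 and 2). The call between Trans and ODIRA_A (1.11, SE 0.15, edgeR BH adjusted P = 0.00383) was lost without ODIRA_A replicate 2 (0.0757). DIP5 also took a varying share of the members' summed CPM, from 25.7% in an ODIRA_A library to 69.4% in a ComQuad library.

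MUP1 (chrVII:599417-601141, plus strand), the high-affinity methionine permease, was set apart by ODIRA_B. It stood at 90.6 and 105 CPM in Trans, 102 and 95.0 in ODIRA_A, 72.1 and 69.4 in ComQuad and 424 and 478 in ODIRA_B. The Trans and ODIRA_A libraries overlapped, those of ComQuad were below and those of ODIRA_B far above. The means were 451 ± 38.5 CPM (SD, n = 2) in ODIRA_B and 70.7 ± 1.91 in ComQuad, a log2 difference of -2.67 for ComQuad against ODIRA_B (SE 0.13, edgeR BH adjusted P = 8.73e-07). Against Trans and ODIRA_A the differences were -2.20 (SE 0.13, 3.62e-06) and -2.19 (SE 0.13, 2.23e-06). Trans and ODIRA_A differed by -0.01 (SE 0.13) and were not called apart (edgeR BH adjusted P = 0.975). The lower level in ComQuad was called against Trans (0.47, SE 0.13, 0.0182) and ODIRA_A (0.48, SE 0.13, 0.0144). Each of those calls was lost without ComQuad replicate 1 (edgeR BH adjusted P = 0.102 and 0.0866) or ComQuad replicate 2 (0.129 and 0.112), and the second also without ODIRA_A replicate 1 (0.0788).

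BAP2, BAP3 and TAT1 encode permeases of the branched-chain amino acids, and TAT1 also takes tyrosine. BAP2 (chrII:373861-375690, minus strand) had the widest range of the 9 tested members. It stood at 7.98 and 11.7 CPM in Trans, 9.31 and 11.1 in ODIRA_A, 1.75 and 1.99 in ComQuad and 27.8 and 35.2 in ODIRA_B. In RPFs these were 64 and 88, 73 and 105, 21 and 16, and 100 and 126, and the ODIRA_B libraries, although the smallest, had the highest mean count. ODIRA_B lay above and ComQuad below every other library. The log2 difference for ComQuad against ODIRA_B was -4.07 (SE 0.30, edgeR BH adjusted P = 6.36e-06), a ratio of strain means of 16.8. BAP2 was lower in ComQuad than in Trans by 2.40 (SE 0.31, 0.000245) and than in ODIRA_A by 2.46 (SE 0.31, 0.000142), and lower in Trans and ODIRA_A than in ODIRA_B (-1.68, SE 0.26, edgeR BH adjusted P = 0.0015, and -1.62, SE 0.25, 0.0013). The only pair not called was Trans and ODIRA_A.

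TAT1 (chrII:376574-378433, minus strand), the neighbour of BAP2 on the same strand, varied far less. It stood at 6.24 and 7.84 CPM in Trans, 9.82 and 8.81 in ODIRA_A, 5.07 and 5.48 in ComQuad and 6.38 and 8.66 in ODIRA_B. The ODIRA_A libraries were highest and the ComQuad libraries lowest, with Trans and ODIRA_B overlapping between them. TAT1 did not pass the test across the 4 strains (edgeR BH adjusted P = 0.113). Its difference between ODIRA_A and ComQuad, 0.82 on the log2 scale (SE 0.26), was called in the pair (edgeR BH adjusted P = 0.0353), but not with DESeq2 (0.0723) nor without ODIRA_A replicate 1 (0.125), ODIRA_A replicate 2 (0.0772), ComQuad replicate 1 (0.194) or ComQuad replicate 2 (0.121). The ratio of highest to lowest strain mean was 16.8 for BAP2, which has 6 CGGC matches before it, and 1.77 for TAT1, which has 7. Whether these matches bear on the ranges was not tested.

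BAP3 (chrIV:548762-550576, minus strand) could not be tested. It had 9 and 5 RPFs in the Trans libraries, 3 and 0 in ODIRA_A, 8 and 1 in ComQuad and 6 and 0 in ODIRA_B. Replicates of 1 strain differed as much as strains did, and no fold is given. BAP2 and BAP3 have the most alike CDS of the 45 pairs of members, with 69.1% identical bases, but 0 of their 28-base windows occur elsewhere in the genome, so the low count of BAP3 stood beside a unique sequence. A difference between strains in BAP3 was not detectable at this depth.

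TAT2 (chrXV:286172-287950, plus strand), the high-affinity permease of tryptophan and tyrosine, was the lowest of the tested members. It stood at 6.36 and 4.25 CPM in Trans, 4.21 and 4.03 in ODIRA_A, 2.49 and 1.49 in ComQuad and 2.78 and 2.24 in ODIRA_B, which in ODIRA_B rests on 10 and 8 RPFs. The Trans and ODIRA_A libraries were above those of ComQuad and ODIRA_B, which overlapped. The test across the strains passed narrowly (edgeR BH adjusted P = 0.0432). It did not pass with DESeq2 (0.0787), nor without any 1 library other than Trans replicate 2 (0.0892 without Trans replicate 1, 0.0715 and 0.0717 without ODIRA_A replicates 1 and 2, 0.0732 and 0.155 without ComQuad replicates 1 and 2, and 0.0783 and 0.0899 without ODIRA_B replicates 1 and 2). The pair called was Trans against ComQuad, 1.37 on the log2 scale (SE 0.38, edgeR BH adjusted P = 0.0192), and this call was lost without Trans replicate 1 (0.0853) or ComQuad replicate 2 (0.133). ODIRA_A and ComQuad, 1.00 apart (SE 0.38, 0.0667), were called without Trans replicate 1 (0.0457) or Trans replicate 2 (0.0423).

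CAN1 (chrV:31694-33466, minus strand), the arginine permease through which the toxic analogue canavanine enters, was abundant and moved little. It stood at 392 and 506 CPM in Trans, 403 and 428 in ODIRA_A, 326 and 327 in ComQuad and 558 and 530.2 in ODIRA_B. ODIRA_B was above and ComQuad below all other libraries, while those of Trans and ODIRA_A overlapped. ODIRA_B exceeded ComQuad (-0.74 for ComQuad against ODIRA_B, SE 0.14, edgeR BH adjusted P = 0.00368), a ratio of 1.67. Across the strains CAN1 was called (edgeR BH adjusted P = 0.011), but not without ComQuad replicate 1 (0.0816), ComQuad replicate 2 (0.0768), ODIRA_B replicate 1 (0.0667) or ODIRA_B replicate 2 (0.0517). Trans exceeded ComQuad by 0.46 (SE 0.14, 0.0315), a call lost without Trans replicate 2 (0.125), either ComQuad replicate (0.164 and 0.151 without replicates 1 and 2) or either ODIRA_B replicate (0.0568 and 0.057). With Trans replicate 2 left out, ODIRA_B exceeded Trans (-0.47, edgeR BH adjusted P = 0.0173). Without Trans replicate 1 or 2, ODIRA_A exceeded ComQuad (0.35 in both, 0.0116 and 0.0115) and fell below ODIRA_B (-0.39 in both, 0.00883 and 0.00867), which were not called in the full fit.

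HIP1 (chrVII:880420-882231, plus strand), the histidine permease, was led by Trans and ODIRA_A and not by ODIRA_B. It stood at 47.5 and 59.8 CPM in Trans, 60.1 and 44.8 in ODIRA_A, 13.5 and 17.2 in ComQuad and 25.8 and 26.0 in ODIRA_B. All 4 libraries of Trans and ODIRA_A, the strains isolated earlier, were above all 4 of ComQuad and ODIRA_B, the strains isolated later. The ComQuad and ODIRA_B libraries did not overlap each other. Time of isolation cannot be told apart from differences between the clones, and the share of all tested genes with this split is not given here. HIP1 was higher in Trans than in ComQuad by 1.82 on the log2 scale (SE 0.20, edgeR BH adjusted P = 7.15e-05) and in ODIRA_A than in ComQuad by 1.78 (SE 0.20, 5.76e-05). It was higher in Trans and ODIRA_A than in ODIRA_B by 1.05 (SE 0.20, edgeR BH adjusted P = 0.00621) and 1.01 (SE 0.20, 0.00552). Without ODIRA_B replicate 1 or replicate 2 neither of these passed (0.0602 and 0.0613 for Trans, 0.0504 and 0.0546 for ODIRA_A). ComQuad was below ODIRA_B (-0.77, SE 0.22, edgeR BH adjusted P = 0.0259), a call lost without ComQuad replicate 1 (0.202), ODIRA_B replicate 1 (0.122) or ODIRA_B replicate 2 (0.12).

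For the 2 members with the widest ranges of strain means, BAP2 and DIP5, the genes with the most similar profiles were found by the root mean square distance of log2 CPM, centred on each gene's mean, over the 8 libraries. Nearest to BAP2 were YDR034W-B (distance 0.40, Pearson r 0.96), AGP3 (0.42, r 0.98) and YPR145C-A (0.48, r 0.94). Nearest to DIP5 were PIR3 (0.18, r 0.99), YGR153W (0.21, r 0.98) and HSP150 (0.26, r 0.97). PIR3 and HSP150 encode secreted proteins of the cell wall, and AGP3 encodes an amino acid permease of the same family as Bap2. These are descriptions over 8 libraries that share strains in pairs, chosen as the closest of all tested genes. Between members, the Pearson r of log2 CPM over the 8 libraries was highest for BAP2 and CAN1 (0.95) and lowest for DIP5 and HIP1 (-0.74).

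Among 9 other permeases of the plasma membrane, 8 changed across the 4 strains (background 43.5%). GAP1 is counted in this list and among the 8, and its copy number differs between the strains. The highest mean of 5 of these was in ODIRA_B, against 623 of all 2491 called genes (10.9% of tested genes). Of the 5, AGP3, SAM3 and MMP1 were called higher in ODIRA_B than in each other strain. LYP1 in ODIRA_B was not called apart from ComQuad or ODIRA_A (edgeR BH adjusted P = 0.856 and 0.136), nor ALP1 from Trans or ODIRA_A (0.254 and 0.368). GAP1 was read at 8795 and 7960.1 CPM in Trans, 8815 and 7798 in ODIRA_A, 16145 and 16546 in ComQuad and 13517 and 13485 in ODIRA_B. Both strains isolated later were above both isolated earlier, with ComQuad on top. Here time of isolation cannot be told apart from clone or GAP1 copy number. SAM3, the S-adenosylmethionine permease, stood at 284 ± 6.28 CPM (SD, n = 2) in ODIRA_B and 46.7 ± 6.07 in ODIRA_A, its lowest strain (edgeR BH adjusted P across the strains = 6.51e-07). AGP3 stood at 187 ± 10.4 CPM in ODIRA_B and 26.1 ± 4.14 in ComQuad (1.26e-06). MMP1, the S-methylmethionine permease, stood at 339 ± 12.9 CPM in ODIRA_B and 119 ± 10.1 in Trans (1.79e-05). The count of 8 fell without ComQuad replicate 2 or ODIRA_B replicate 1, and the share of all tested genes called in those fits is not given here. The median ratio of the highest to the lowest strain mean was 1.97 in this list.

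**Figure D3:**
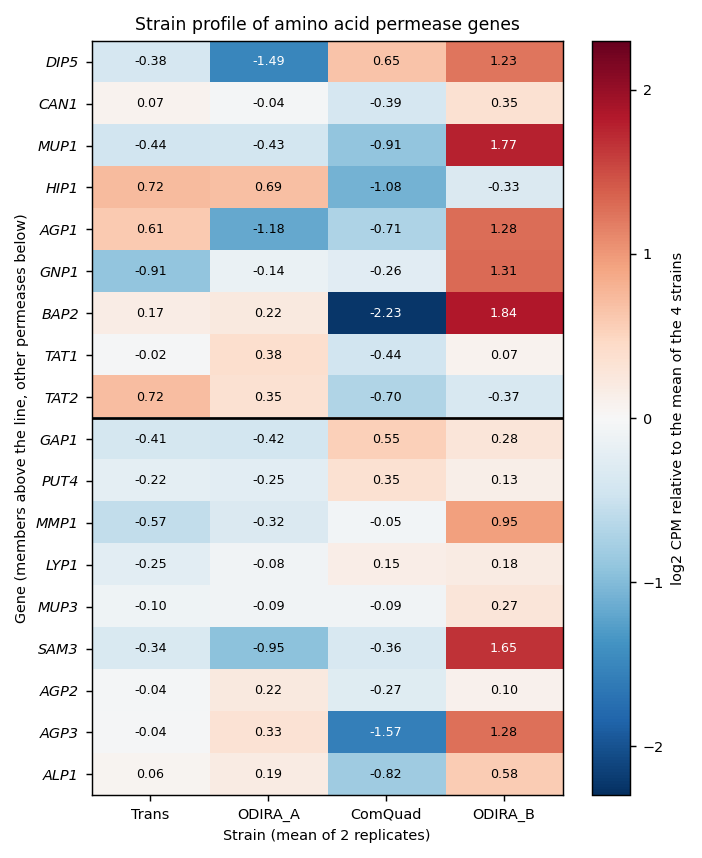
Strain profile of the 9 tested members (above the line) and 9 other plasma membrane amino acid permeases (below), as log2 of the mean CPM of 2 replicates relative to the mean of the 4 strains. Red is above and blue below that mean, and within each block genes are ordered by mean CPM. The highest cell is BAP2 in ODIRA_B (1.84) and the lowest BAP2 in ComQuad (-2.23).

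The genes of the SPS sensor pathway had narrower ranges between strains than the permeases. Of 10 genes, 3 were called, PTR3, DAL81 and ASI3 (background 43.5%), and the median ratio of highest to lowest strain mean was 1.30, below that of all tested genes. SSY1, the sensor itself, stood between 17.2 and 23.0 CPM in the 8 libraries (edgeR BH adjusted P across the strains = 0.698). STP1 averaged 205 CPM in Trans and 153 to 166 in the other strains (0.186), and STP2 averaged 203 in ODIRA_A and 273 to 285 in the others (0.137). DAL81, the activator that works beside Stp1 and Stp2, stood at 146 ± 48.1 CPM (SD, n = 2) in Trans and 141 ± 0.26 in ComQuad. In ODIRA_A and ODIRA_B it stood at 91.3 ± 5.47 and 82.7 ± 6.68 CPM. Trans and ComQuad were not called apart, nor were ODIRA_A and ODIRA_B, nor Trans and ODIRA_A (edgeR BH adjusted P = 0.856, 0.644 and 0.0812). DAL81 was called across the strains (edgeR BH adjusted P = 0.0102). ASI3, part of the complex at the inner nuclear membrane that holds back Stp1 and Stp2, was highest in ComQuad at 61.5 ± 0.769 CPM (0.017), and PTR3 stood at 57.8 ± 2.49 CPM in ODIRA_A and 79.2 to 82.4 in the other strains (0.0488). The count of 3 fell without ComQuad replicate 1, ComQuad replicate 2 or ODIRA_B replicate 2 and rose without Trans replicate 1. For those fits the share of all tested genes called is not given here. These values are ribosome occupancy and hold no measure of the cleavage of Stp1 and Stp2.

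Of 9 genes for folding, ubiquitination and sorting of permeases, 5 were called, a share near the background of 43.5%. SHR3, NPR1 and BUL1 were highest in ComQuad, as were 806 of all 2491 called genes (14.1% of tested genes). SHR3, the chaperone that permeases need to leave the endoplasmic reticulum, stood at 232 ± 22.1 CPM (SD, n = 2) in ComQuad and at 157 ± 6.25 in ODIRA_A (edgeR BH adjusted P across the strains = 0.0327). NPR1, the kinase that keeps permeases at the surface, stood at 267 ± 3.79 CPM in ComQuad and 172 ± 0.711 in ODIRA_A (0.0041). BUL1, an adaptor of Rsp5 that acts on Gap1, also had its highest mean in ComQuad and its lowest in ODIRA_A, at 61.5 ± 5.17 and 36.1 ± 0.146 CPM (0.00493). NPR1 was called higher in ComQuad than in each other strain. SHR3 and BUL1 in ComQuad were not called apart from ODIRA_B (edgeR BH adjusted P = 0.113 and 0.689 in the pair). ALY1, another adaptor, stood at 308 ± 105 CPM in Trans and 113 ± 2.08 in ComQuad (0.000302), but it is itself a CNV gene: it lies within the amplified segments of Trans and ODIRA_B, where it averaged 308 and 284 CPM, and the study's methods leave it out for ODIRA_A because a breakpoint likely falls inside it. RSP5 stood between 226 and 288 CPM in all libraries (edgeR BH adjusted P = 0.43). Without ComQuad replicate 1, ComQuad replicate 2, ODIRA_B replicate 1 or ODIRA_B replicate 2 the count of 5 fell. For those fits the share of all tested genes called is not given here.

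**Figure D4:**
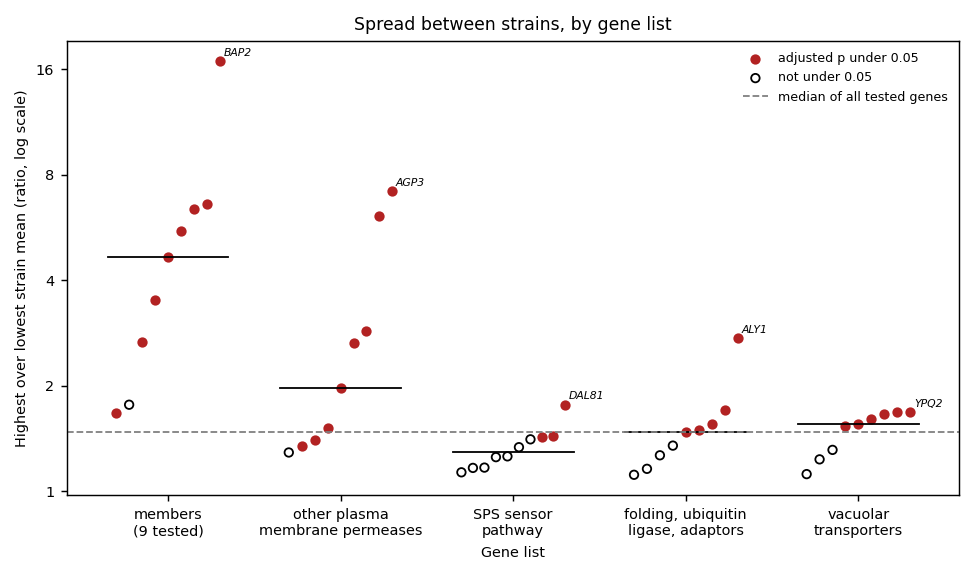
Ratio of the highest to the lowest strain mean of CPM, on a log scale, for each tested gene of 5 lists, with the gene of the largest ratio named. Filled points were called across the 4 strains, short lines are list medians and the dashed line is the median of all tested genes (1.48). The median of the members is 4.65, that of the other permeases 1.97 and that of the SPS genes 1.30.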

How the data were processed

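RPF libraries of 4 strains, 2 chemostat cultures each, were analysed. The authors deposited 1 table of raw counts per library, 1 line per annotated feature of the R64-1-1 annotation. Per the methods, cultures were treated with cycloheximide, fragments were selected by size, and reads of rRNA, tRNA and snRNA were removed. The remaining reads were aligned with STAR 2.7.6a and counted by strand with bedtools 2.29.2. How reads with several matches were treated is not given in the sources used here, which matters most for members with shared sequence. The 17 chromosomes of the tables have the same lengths as in the R64 reference.

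Counts on 6913 CDS features were summed for 6600 genes. The 5725 genes that reached 10 RPFs in 2 or more libraries were fitted with edgeR 4.0.16 in R 4.3.3 (TMM, robust quasi-likelihood F test, 4 residual degrees of freedom, common biological coefficient of variation 0.123), across the 4 strains and for 6 pairs, with BH adjustment within each test. A positive log2 difference means higher in the strain named first. SE is the absolute log2 difference divided by the square root of F. The script was tested on simulated data. Depth limits the precision of TAT2 and BAP3 most.

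Named were all members, GAP1, SHR3, SSY1, STP1 and STP2, at most 3 genes of smallest adjusted P from each list, the 3 nearest profiles of BAP2 and DIP5 (log2 CPM with a prior count of 2), and VPS1 and SAK1. RSP5 was named after its values were seen. YPQ3 was matched to RTC2 through RefSeq. The members, lists and motifs were chosen with earlier results of these data known. Alternatives were DESeq2 1.42.0, RLE normalization, TMM from genes outside the CNVs, no TMM, other count filters, counts on the gene feature, only the libraries compared, a replicate block, leaving out each library and, added after the data were seen, leaving out ODIRA_B. RNA and protein measurements were not analysed here.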

Additional observations from a re-analysis of the deposited data

How the results depend on the processing

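The 8 members called across the 4 strains were also 8 in number under RLE normalization, TMM from genes outside the CNVs and counts on the gene feature, 7 with DESeq2 (TAT2 lost) and with 10 RPFs required in every library (TAT2 not tested), and 6 to 8 without 1 library. Without both ODIRA_B libraries 5 members, 4 of the other permeases and 1 SPS gene were called. With only the 4 libraries compared, 4 members were called between Trans and ComQuad. The result of leaving out 1 library was 4 to 9 other permeases, 1 to 5 SPS genes, 2 to 7 folding and sorting genes, 0 to 3 members between Trans and ODIRA_A, 4 to 7 between Trans and ComQuad and 3 to 7 between ODIRA_A and ComQuad. In these fits the strain with a lone library is assumed to vary like the others. The share of all tested genes called is given above for the fit without both ODIRA_B libraries. For the counts under every other alternative setting it is not given. Changes in those counts therefore cannot be read as results about these genes alone. The differences that changed sign were not called: for Trans against ODIRA_A, BAP2 (-0.06) turned positive without Trans replicate 1 or ODIRA_A replicate 2 (range -0.36 to 0.19), CAN1 (0.11) negative without Trans replicate 2 (-0.084 to 0.28), MUP1 (-0.01) positive without Trans replicate 1 or ODIRA_A replicate 1 (-0.12 to 0.10), and HIP1 (0.04) negative without Trans replicate 2 or ODIRA_A replicate 2 (-0.16 to 0.26). For ODIRA_A against ComQuad, GNP1 (0.10) turned negative without ODIRA_A replicate 1 or ComQuad replicate 2 (-0.17 to 0.33). For Trans against ODIRA_B, TAT1 (-0.10) turned positive without Trans replicate 1 or ODIRA_B replicate 2 (-0.29 to 0.15). The cause was not tested.

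The data do not show that replicate numbers pair the samples: the correlation of replicate deviations was 0.12 to 0.17 in the 3 pairs of strains without ComQuad and -0.13 to -0.10 in the 3 pairs with it. With a replicate block, 8 members were called across the strains as without it and 34 instead of 32 of the pair tests, AGP1 between Trans and ODIRA_B (-0.69, adjusted P = 0.0228) and TAT2 between ODIRA_A and ComQuad (1.05, 0.048) being added. The share of all tested genes called in the blocked fit is not given, so the change in count cannot be read as a result about the members alone. Without TMM the median of all tested genes moved by up to 0.15 on the log2 scale (ComQuad against ODIRA_B), and all 36 member levels stayed within 1.5-fold. Replicates were closest in ComQuad (SD of their log2 ratio 0.166) and farthest apart in Trans (0.385). Depth limits TAT2, TAT1 and BAP3, which had at most 51, 83 and 9 RPFs in a library.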

Other observations

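Of 9 transporters of the vacuolar membrane, which move amino acids into and out of the vacuole, 6 were called across the 4 strains by edgeR (background 43.5%). Of these, 5 were highest in ComQuad, against 806 of all 2491 called genes (14.1% of tested genes). AVT7 stood at 355 ± 14.4 CPM (SD, n = 2) in ComQuad and 213 ± 4.79 in ODIRA_B, its lowest strain (edgeR BH adjusted P across the strains = 0.00173). AVT1, which carries glutamine and other neutral amino acids into the vacuole, stood at 326 ± 11.4 CPM in ComQuad and 194 ± 22.5 in Trans (0.00233). YPQ2 stood at 134 ± 11.4 CPM in ComQuad and 79.5 ± 10.01 in ODIRA_A (0.00259). Of the 5, only AVT7 was called higher in ComQuad than in each other strain. AVT1, AVT4 and YPQ2 in ComQuad were not called apart from ODIRA_B (edgeR BH adjusted P = 0.0655, 0.131 and 0.622 in the pair). AVT5 in ComQuad was not called apart from Trans or ODIRA_B (edgeR BH adjusted P = 0.335 and 0.241). The median ratio of highest to lowest strain mean was 1.56 in this list. The count of 6 moved when 1 library was left out, and the share of all tested genes called in those fits is not given here.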
